A study of Mus musculus and Homo sapiens with 10 samples.

Results

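Axonemal dynein heavy chains are the motor subunits that bend cilia and flagella. The 10 genes described here, Dnah1, Dnah2, Dnah3, Dnah5, Dnah6, Dnah8, Dnah9, Dnah10, Dnah11 and Dnah12, were taken by name from 21519 mouse protein-coding genes on chromosomes 1 to 19 and X. They were chosen by the share of the gene body and the state of both ends in lamina-associated domains (LADs), so those values are given as a description and without a test. LADs are stretches of chromatin held at the nuclear lamina, the protein mesh under the nuclear envelope.

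LADs were mapped in N2A cells, a neuroblastoma line of the mouse, by DamID. In this assay lamin B1 is fused to the bacterial methyltransferase Dam, and GATC sites that Dam reaches are read out, here on Nanopore instruments and, as the established form, on Illumina instruments. By Nanopore there was 1 sample of LaminB1-Dam, 1 labelled 10% LaminB1-Dam (what the percentage refers to is not stated) and 1 of Dam alone; by Illumina there were 2 of LaminB1-Dam and 1 of Dam alone, and 1 further sample was wild type. Dam proteins were induced with 2 µg/mL doxycycline. Another 3 samples, of the human line HEK293T with CTCF-DamN126A or DamN126A alone, hold no mouse gene and were not used. Each method had 1 deposited list of consensus LADs, 1174 by Nanopore and 1149 by Illumina on these chromosomes, with borders on a grid of 20 kb. The lists give no value per sample, so depth is unknown, no spread between replicates can be given, and no source used here says which samples entered each list. No expression was measured, so the identity of the cells could not be checked against marker genes.

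In a motile axoneme, dyneins sit in outer and inner rows along the doublet microtubules and walk along the neighbouring doublet, which makes the axoneme bend. Outer arms set beat frequency for the most part and inner arms set the waveform. The chains are made in ciliated airway, ependymal and oviduct cells, in the embryonic node and in the testis, under regulators such as FOXJ1 and the RFX factors.

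The 10 genes fell into 3 kinds of position. Dnah11 lay wholly in a LAD by both methods, Dnah1, Dnah2 and Dnah10 had no base in a LAD by either method, and the other 6 had all or part of the body in a LAD by at least 1 method. At least 50% of the gene body lay in Nanopore LADs for 7 of 10 genes and in Illumina LADs for 6 of 10, against 28.9% and 25.4% of all protein-coding genes. Gene length bears on that background: among 2424 protein-coding genes of 100 kb or more the shares were 41.3% and 36%, and 9 of the 10 chains are that long. Of the 2.11 Mb that the 10 gene bodies span, 70.8% lay in Nanopore LADs and 65.2% in Illumina LADs, beside 40.1% and 35.6% for the bodies of all protein-coding genes and 52.5% and 47.5% for those of 100 kb or more. The median share per gene was 74.4% by Nanopore and 70.1% by Illumina. Over all protein-coding genes, and over those of 100 kb or more, the median was 0% by each method. A median of 0% says only that most genes of the group had no overlap with that list.

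**Figure D1:**
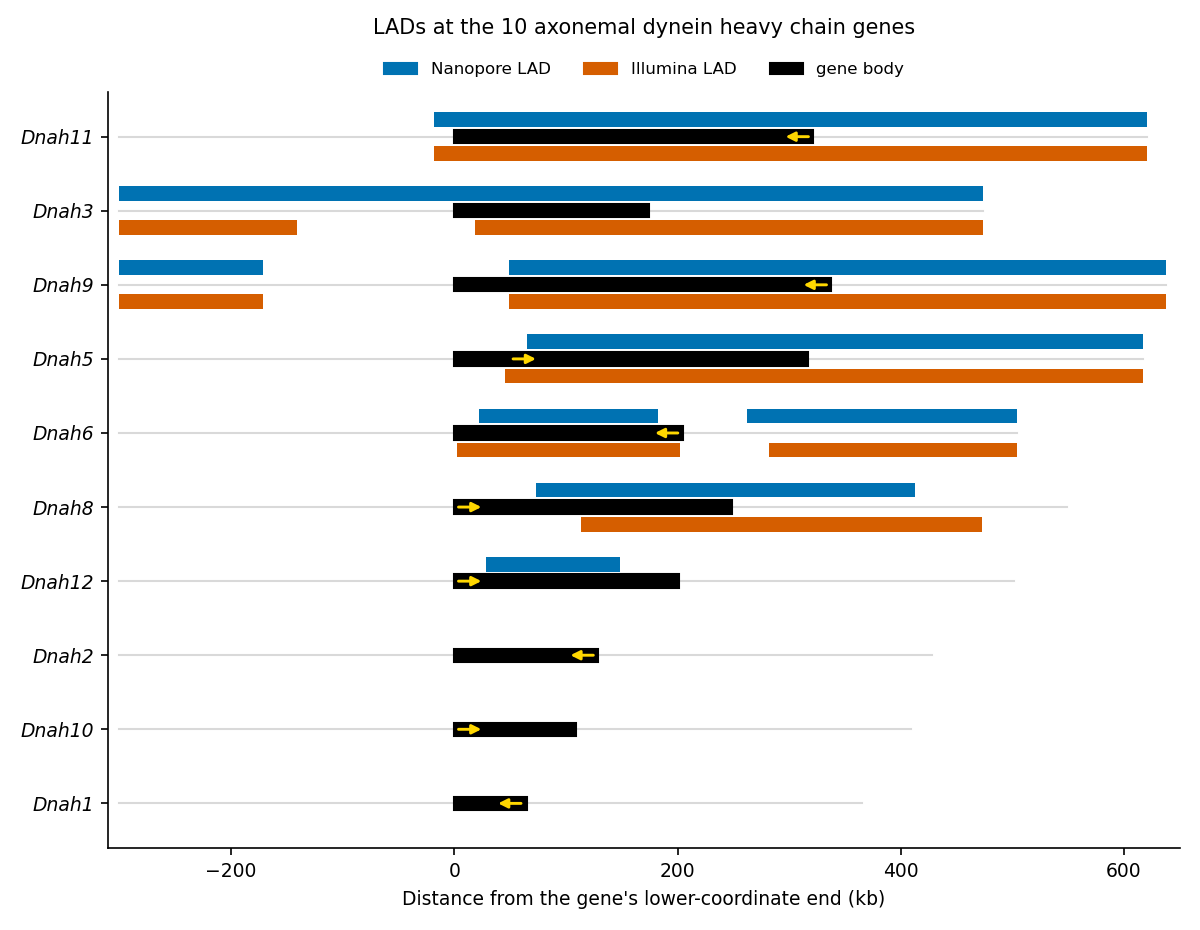
LADs at the 10 genes; the horizontal axis is the distance in kb from the lower-coordinate end of each gene, black bars are gene bodies, bars above them Nanopore LADs and bars below them Illumina LADs, drawn up to 300 kb beyond the gene. Yellow arrows mark the listed start site and the direction of transcription (no start is listed for Dnah3); Dnah11 is covered by both lists, Dnah6 and Dnah12 hold a LAD within the gene, and Dnah1, Dnah2 and Dnah10 have none in view.

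Start sites are described here apart from gene bodies. A start site is listed for 9 of the 10 genes, all but Dnah3. It lay in a Nanopore LAD for 2 of them, Dnah9 and Dnah11, and in an Illumina LAD for 3, with Dnah5 added. Over all listed start sites of protein-coding genes, 26.9% lay in Nanopore LADs and 23.6% in Illumina LADs, so the chains' counts were near the background. Of genes of 100 kb or more with a single listed start and at least 50% of the body in LADs, 88.6% (483 of 545) had that start in a Nanopore LAD and 88.5% (430 of 486) in an Illumina LAD. Of the chains that meet the same 50% criterion and have a listed start, 2 of 6 did by Nanopore and 3 of 5 by Illumina. The state of the ends was among the values that chose the genes, so this contrast restates the choice, was not tested and supports nothing further. Some of these calls turn on less than a grid step, as given below for Dnah5 and Dnah6.

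The sequences just before 4 of these starts are shown because they stand for the positions found: Dnah1 far from any LAD, Dnah11 inside one by both methods, and Dnah12 and Dnah6 with the largest differences in share between methods, in favour of Nanopore and of Illumina. Each is the 250 bases before the start, from RefSeq on GRCm38.p6 (the assembly of mm10), in the direction of transcription, with CG dinucleotides in capitals. The listed starts of Dnah1 and Dnah6 are 1.995 kb and 0.596 kb downstream of the annotated gene boundary. Their sequences therefore lie within the annotated gene bodies. The windows are chr14:31323897-31324146 (minus strand) for Dnah1, chr12:118199044-118199293 (minus) for Dnah11, chr6:73221632-73221881 (minus) for Dnah6 and chr14:26691304-26691553 (plus) for Dnah12.
Dnah1: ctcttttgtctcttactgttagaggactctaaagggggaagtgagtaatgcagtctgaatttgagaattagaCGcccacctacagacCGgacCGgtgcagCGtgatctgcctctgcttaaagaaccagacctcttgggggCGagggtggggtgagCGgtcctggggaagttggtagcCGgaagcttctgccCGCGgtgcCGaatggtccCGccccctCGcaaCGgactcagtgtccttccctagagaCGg
Dnah11: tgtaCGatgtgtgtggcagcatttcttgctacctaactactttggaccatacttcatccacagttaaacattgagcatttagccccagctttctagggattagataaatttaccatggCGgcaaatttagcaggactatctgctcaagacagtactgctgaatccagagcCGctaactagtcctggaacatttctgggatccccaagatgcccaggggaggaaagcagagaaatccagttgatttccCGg
Dnah6: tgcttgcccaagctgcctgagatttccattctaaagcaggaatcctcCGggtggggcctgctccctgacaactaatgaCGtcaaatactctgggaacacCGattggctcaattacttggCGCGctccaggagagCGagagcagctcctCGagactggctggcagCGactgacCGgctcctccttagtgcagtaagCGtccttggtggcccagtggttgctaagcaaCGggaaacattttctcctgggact
Dnah12: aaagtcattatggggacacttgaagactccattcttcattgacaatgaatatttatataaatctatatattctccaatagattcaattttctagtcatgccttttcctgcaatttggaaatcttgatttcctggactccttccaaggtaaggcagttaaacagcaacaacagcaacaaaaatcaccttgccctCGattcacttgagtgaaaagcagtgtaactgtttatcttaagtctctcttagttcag

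CG, which reads the same on both strands, is where mammalian DNA is methylated, and dense CG marks many promoters of widely used genes. Of 21044 listed promoter windows of this length, 93.6% held at least 1 CG. The median was 3 CG for windows whose start lay in Nanopore LADs and 13 for those outside, and 2 and 13 by Illumina. Among the chains, Dnah11 and Dnah9, with starts inside by both methods, had 4 and 8 CG, and Dnah5, inside by Illumina only, had 4. Of the 6 with starts outside by both methods, Dnah1 had 14, Dnah8 had 13, Dnah6 had 11, Dnah10 had 6, Dnah2 had 3 and Dnah12 had 1. CG counts inside and outside LADs therefore overlapped within the family, and Dnah12, outside by both, had the fewest. GATC, the word Dam methylates, was present in 3 of the 9 windows (Dnah1, Dnah5 and Dnah11, 1 each) and in 40.3% of all windows; it too reads the same on both strands.

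The 4 outer arm chains among the 10 genes lay mostly in LADs by both methods. Dnah17, an outer arm chain outside this set, lay 0% in both lists. Dnah11, known in the mouse as left-right dynein and needed for normal placement of the internal organs, spans 321 kb (chromosome 12, 117877982 to 118199043). All of it, 100% by Nanopore and 100% by Illumina, lay in a LAD of 2.18 Mb (117860001 to 120040000) with the same borders in both lists. Its 3′ end was 18 kb inside the near border and its start 339 kb inside the LAD. The call of full coverage thus turns on less than a grid step of 20 kb at the 3′ end. Wholly covered genes were common, 22.8% of all protein-coding genes and 24.6% of those of 100 kb or more in both lists.

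Dnah9, a beta-type outer arm chain related to Dnah11, is the longest of the 10 genes at 337 kb (chromosome 11, 65831324 to 66168581). By either method 85.6% of it lay in the same 0.96 Mb LAD (65880001 to 66840000), which held the start, 289 kb from the border, and left out the last 48.7 kb at the 3′ end. The gap between that LAD and the next was 220 kb in both lists.

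Dnah5 and Dnah8 showed the opposite orientation, with the 3′ end inside and the annotated start outside. Dnah5, the gamma-type outer arm chain whose loss in people causes primary ciliary dyskinesia, spans 317 kb (chromosome 15, 28154854 to 28472045). Its body was 79.5% in a Nanopore LAD of 3.06 Mb and 85.8% in an Illumina LAD of 3.18 Mb. The Illumina LAD began 45.2 kb and the Nanopore LAD 65.2 kb into the annotated gene. The listed start of Dnah5 is 48.9 kb downstream of the annotated gene boundary and fell between these borders, 16.2 kb outside the Nanopore LAD and 3.77 kb inside the Illumina LAD. A shift by a single grid step thus decided the call. Measured from the listed start, 93.95% of Dnah5 lay in the Nanopore LAD and 100% in the Illumina LAD.

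Dnah8, a chain of sperm outer arms close to Dnah5, spans 249 kb (chromosome 17, 30626935 to 30875762). Nanopore LADs held 70.6% of it and Illumina LADs 54.6%. Its start lay 73.1 kb outside the Nanopore LAD and 113 kb outside the Illumina LAD, so the lists differed by 40 kb, or 2 grid steps. The host LADs were narrow, 340 kb and 360 kb. Among genes of 100 kb or more that lay partly in Nanopore LADs and have a listed strand, the start was outside and the 3′ end inside in 41.8% of 306, and the reverse held in 45.4%; by Illumina the shares were 36% and 54% of 278. Both orientations seen in the outer arm chains are thus common among such genes.

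The 6 inner arm chains among the 10 genes were more varied. Dnah3, a single-headed inner arm chain, spans 174 kb (chromosome 7, 119921332 to 120095297) and lay 100% in a Nanopore LAD of 1.56 Mb. By Illumina, 89.3% of it lay in a LAD of 0.68 Mb, because a gap of 160 kb (119780001 to 119940000) that the Nanopore list does not have reached 18.7 kb into the lower-coordinate end of the gene. That reach is less than a grid step of 20 kb. The wider Nanopore LAD held the midpoints of 24 protein-coding genes and the Illumina LAD those of 9. Lyrm1, the nearest named gene below Dnah3, lay in that gap, with 100% of its body in Nanopore LADs and 0% in Illumina LADs.

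Dnah6, another single-headed inner arm chain, held a whole LAD within its body. The gene spans 205 kb (chromosome 6, 73017603 to 73222227). The Nanopore LAD in it was 160 kb wide (73040001 to 73200000) and covered 78.2% of the gene, and the Illumina LAD was 200 kb wide (73020001 to 73220000) and covered 97.7%. Each of the 2 borders was 1 grid step further out by Illumina. Its lower-coordinate end, the 3′ end, was 22.4 kb outside the Nanopore LAD and 2.40 kb outside the Illumina LAD, and its listed start was 21.6 kb and 1.63 kb outside. The start is within a grid step of the Illumina border, which is finer than the lists resolve. The next named genes, Tmsb10 and Suclg1, 58.9 kb and 26.3 kb away, lay 0% in LADs of either list. The LAD in Dnah6 was not isolated, since a gap of 80 kb in each list separated it from the next LAD above. Of the gene with 500 kb on each side, 49.99% lay in Nanopore LADs and 51.65% in Illumina LADs.

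Dnah12, likewise an inner arm chain, was the gene on which the methods differed most. It spans 201 kb (chromosome 14, 26691554 to 26892719). A Nanopore LAD of 120 kb (26720001 to 26840000) lay wholly inside it and covered 59.7%, with the start 28.5 kb and the 3′ end 52.7 kb outside. By Illumina no base of Dnah12 lay in a LAD, and the nearest LADs were 3192 kb below and 1687 kb above the gene. Of all protein-coding genes, 3.63% had at least 50% of the body in Nanopore LADs and no overlap with Illumina LADs, and 4.25% of those of 100 kb or more. The neighbours Pde12 and Asb14 lay 0% in LADs of either list.

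LADs enclosed by a single gene were uncommon in both lists. Of Nanopore LADs 3.49% (41 of 1174) lay wholly inside a protein-coding gene, and of Illumina LADs 3.05% (35 of 1149). Seen from the genes, 35 protein-coding genes (0.163%) overlapped a Nanopore LAD with both ends outside, all of them of 100 kb or more, where they made up 1.44%; by Illumina there were 30 (0.139%, and 1.24% of the long genes). Dnah6 and Dnah12 were among the 35 and Dnah6 among the 30. LADs this narrow were a minority: 9.11% of Nanopore LADs were at most 120 kb wide, and 18.1% of Nanopore and 19.8% of Illumina LADs at most 200 kb.

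The 3 chains outside LADs were the shortest of the 10 genes. Dnah2 and Dnah10 encode the heavy chains of the inner arm known as f or I1, and Dnah1 an inner arm chain needed for sperm flagella. Dnah1 spans 65.5 kb (chromosome 14, 31260375 to 31325891), Dnah10 109 kb (chromosome 5, 124725085 to 124834308) and Dnah2 128 kb (chromosome 11, 69420807 to 69549108). The intervals free of LADs around them were 3.16 Mb by Nanopore and 3.12 Mb by Illumina for Dnah1, 3.42 and 3.32 Mb for Dnah2, and 5.48 and 5.62 Mb for Dnah10. The nearest LAD was 920 kb away by Nanopore and 900.4 kb by Illumina for Dnah1, 1511 and 1531 kb for Dnah2, and 706 and 726 kb for Dnah10. No overlap with either list was also the state of 68.8% of all protein-coding genes and 52.3% of those of 100 kb or more.

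**Figure D2:**
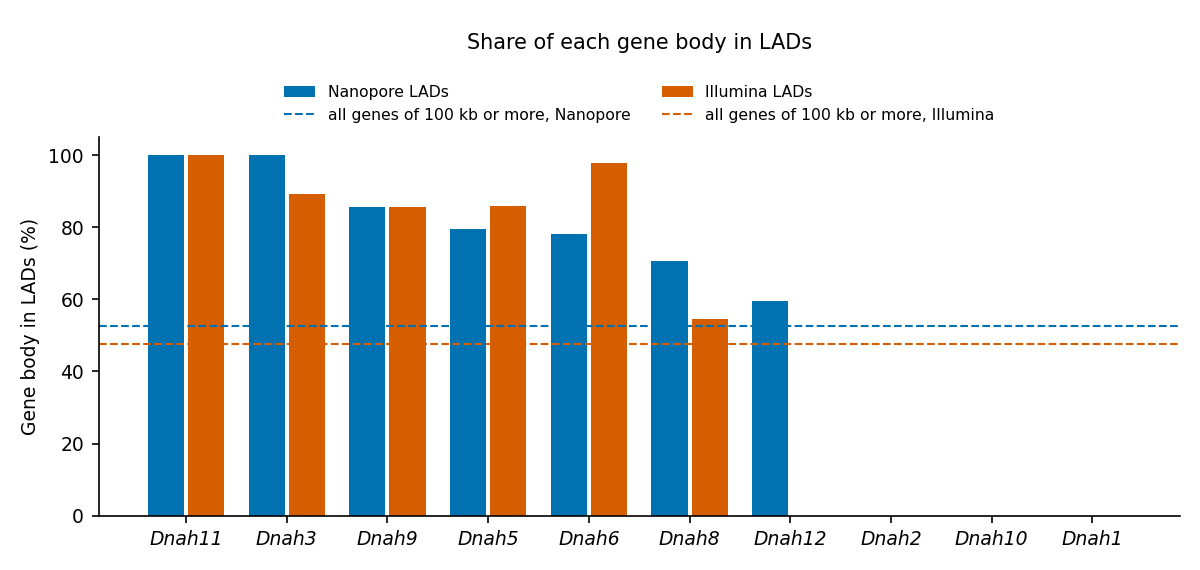
Share of each gene body in LADs, in percent (vertical axis), for the 10 genes in order of the share common to both lists; Nanopore bars stand left of Illumina bars, and dashed lines give the share of the summed bodies of all protein-coding genes of 100 kb or more (52.5% by Nanopore, 47.5% by Illumina). Every gene with any overlap had more than 50% by that method, and Dnah12 is the only one of the 10 with a Nanopore bar and no Illumina bar.

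By arm, a grouping made after the values were seen, the 4 outer arm genes had 84.7% of their summed bodies in Nanopore LADs and 83.1% in Illumina LADs, with all 4 above 50% in both lists. The 6 inner arm genes had 51.4% and 40.3%, with 3 and 2 above 50%. The outer arm genes were longer, 249 to 337 kb against 65.5 to 205 kb, and the part of length in this difference was not tested. The difference rests on which chains are in the set of 10: with Dnah17 added to the outer arm and Dnah7a, Dnah7b and Dnah7c to the inner arm, the summed shares were 77.8% for outer and 77.2% for inner arm genes by Nanopore, and 76.3% and 71.98% by Illumina.

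Between methods, the share was larger by Nanopore in Dnah3, Dnah8 and Dnah12, larger by Illumina in Dnah5 and Dnah6, and equal in Dnah9 and Dnah11. Of all protein-coding genes, 6.25% had the larger share by Nanopore, 1.26% by Illumina and 23.7% the same share above 0; among those of 100 kb or more these were 15.8%, 3.51% and 28.5%. Summed over the 10 genes, 1313 kb were in both lists, 179 kb in Nanopore LADs only, of which 120 kb were in Dnah12, and 60.0 kb in Illumina LADs only. Both ends of the gene lay in Nanopore LADs for 2 of 10 genes, Dnah3 and Dnah11, and in Illumina LADs for 1, Dnah11; the background was 26.9% and 23.5% of all protein-coding genes, and 30.0% and 25.8% of those of 100 kb or more. A gene body that crossed a LAD border or enclosed a LAD was seen in 5 of 10 by each method, Dnah5, Dnah6, Dnah8 and Dnah9 in both, with Dnah12 by Nanopore and Dnah3 by Illumina, against 3.63% and 3.16% of all protein-coding genes and 17.9% and 14.8% of the long ones.

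**Figure D3:**
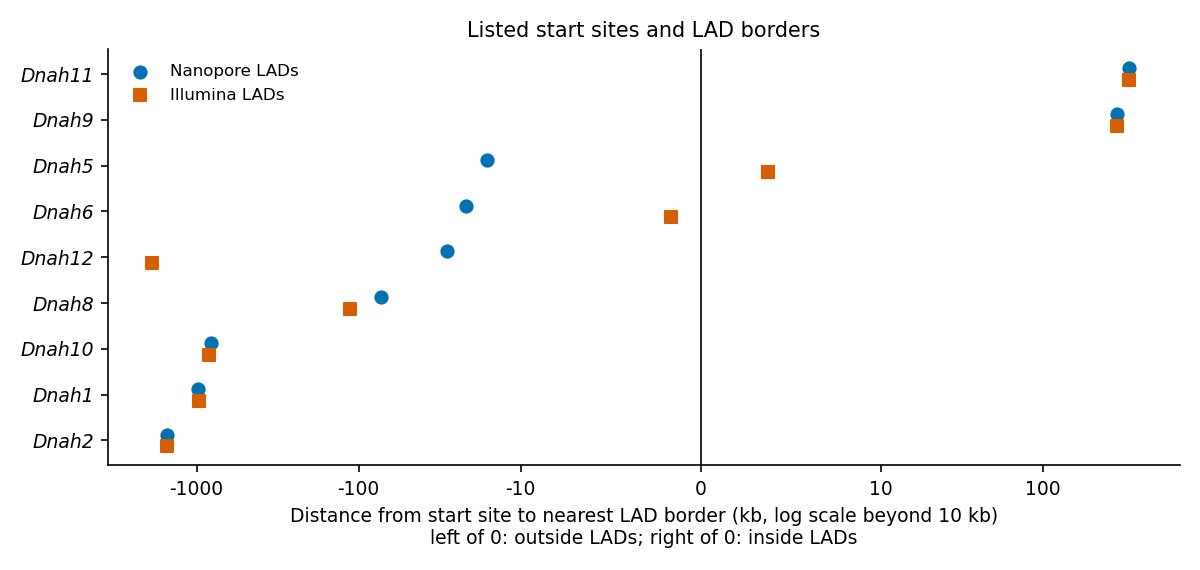
Distance in kb from each listed start site to the nearest LAD border (horizontal axis, linear within 10 kb of 0 and logarithmic beyond), negative outside and positive inside LADs, for the 9 genes with a listed start. Dnah11 and Dnah9 sit inside by 339 and 289 kb in both lists, and Dnah5 is on opposite sides, 16.2 kb outside by Nanopore and 3.77 kb inside by Illumina.

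Whether a gene overlapped LADs ran along with length by Nanopore, and by Illumina with Dnah12 as the exception. The relation was not measured or tested. Dnah1, Dnah10 and Dnah2, at 65.5 to 128 kb, had no overlap, and the 7 genes of 174 to 337 kb had at least 59.7% of the body in Nanopore LADs. Within those 7 the Nanopore share did not rise steadily with length. Dnah3, the shortest of them, had 100% and Dnah9, the longest, 85.6%. By Illumina, Dnah12 at 201 kb had 0%, while the shorter Dnah3 at 174 kb had 89.3% and Dnah8 at 249 kb had 54.6%. In the genome as a whole the share of genes with at least 50% in Nanopore LADs was 21.9% at 30 to 100 kb, 31.4% at 100 to 200 kb, 43.7% at 200 to 300 kb and 64.9% at 300 kb or more; by Illumina it was 18.2%, 27.1%, 35.1% and 59.7%. In the class of 300 kb or more all 3 chains, Dnah5, Dnah9 and Dnah11, passed by both methods. In the class of 200 to 300 kb, 3 of 3 passed by Nanopore and 2 by Illumina. At 100 to 200 kb, 1 of 3 passed by each method, and at 30 to 100 kb the only chain, Dnah1, passed by neither.

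**Figure D4:**
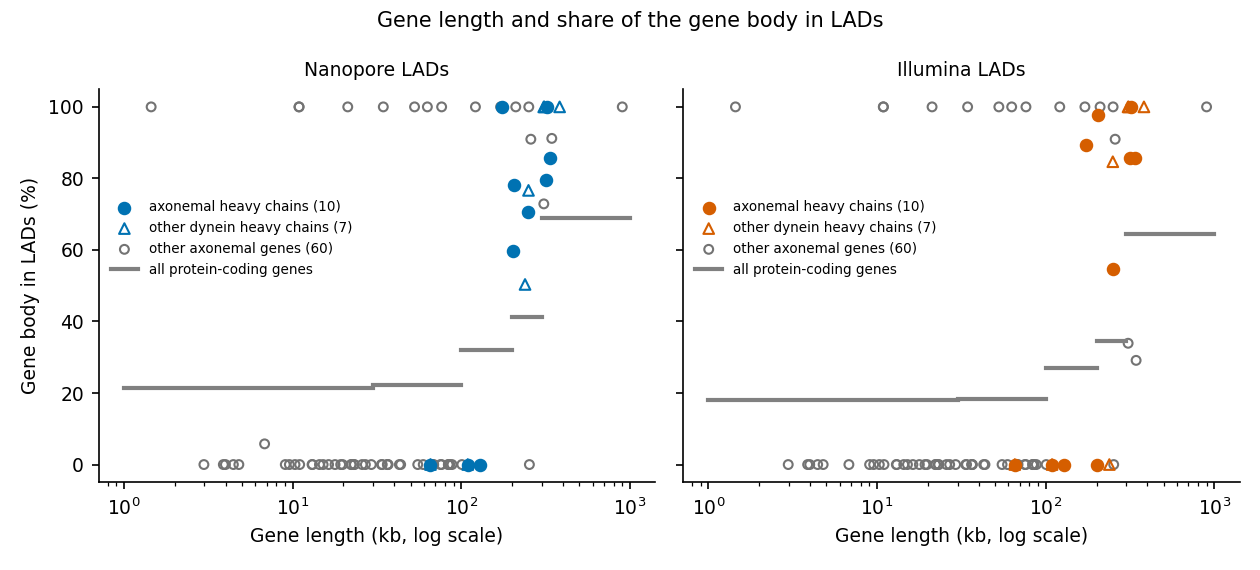
Gene length in kb (horizontal axis, log scale) and share of the gene body in LADs in percent (vertical axis), for Nanopore LADs on the left and Illumina LADs on the right; filled circles are the 10 genes, triangles 7 other dynein heavy chains and open circles 60 other axonemal and ciliary genes. Grey lines give the share of summed bodies of all protein-coding genes per length class, 41.2% by Nanopore and 34.7% by Illumina at 200 to 300 kb; lines are drawn from 1 to 1000 kb though some genes are shorter or longer.

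Gene density around the chains varied widely. Within 500 kb on each side, Dnah2 had 61.2 other protein-coding genes per Mb, Dnah1 25.3, Dnah3 17.9, Dnah10 17.1, Dnah12 9.99, Dnah8 9.61, Dnah6 9.13, Dnah5 2.28, Dnah11 2.27 and Dnah9 2.24. The median around genes of 100 kb or more was 6.16 per Mb and around all protein-coding genes 15.0. The 3 genes outside LADs had densities above both medians and lay next to Kdm6b, a histone demethylase gene, for Dnah2 (0.439 kb apart), Bap1, a deubiquitinase gene, for Dnah1 (0.444 kb) and Ccdc92 for Dnah10 (0.123 kb). Dnah3, in LADs for most of its length, was also above both medians, with a density close to that of Dnah10. Dnah6, Dnah8 and Dnah12 were above the median for genes of 100 kb or more, and Dnah5, Dnah9 and Dnah11 below it. Dnah6 and Dnah12 had both neighbours outside LADs, as given above, while 3 genes that cross a LAD border in both lists had a neighbour of each state. Glo1 next to the start of Dnah8 lay 0% and Glp1r past its 3′ end 100% in both lists, and Zkscan6 past the 3′ end of Dnah9 lay 0% and Shisa6 before its start 100%. Trio, 129 kb before Dnah5, lay 0% in LADs, and Ctnnd2, 1700 kb past it, 100% by both. Dnah11, which crosses no border, also had a neighbour of each state, Rapgef5 at 0% and Sp4 at 100% in both lists.

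Other dynein heavy chain genes covered the same range. Dnah7a (310 kb), Dnah7b (307 kb) and Dnah7c (382 kb), close copies of an inner arm chain gene on chromosome 1, lay 100% in LADs of both lists, Dnah7b and Dnah7c in a single LAD of 4.98 Mb (45940001 to 50920000). Dnah14 (238 kb) resembled Dnah12, with a Nanopore LAD of 120 kb inside the gene covering 50.4% and no Illumina overlap. Dnah17 (109 kb), an outer arm chain of sperm, lay 0% in both lists. With Dnah17 and the 3 Dnah7 genes added, 4 of 5 outer arm genes had at least 50% in LADs by each method, and 6 of 9 inner arm genes by Nanopore and 5 of 9 by Illumina. Of all protein-coding genes of 100 kb or more, 41.3% reached 50% by Nanopore and 36% by Illumina. At 300 kb or more these shares were 64.9% and 59.7%. Of the chains that work outside the axoneme motor, Dync1h1 of cytoplasmic dynein lay 0% and Dync2h1 of intraflagellar transport 76.7% by Nanopore and 84.7% by Illumina.

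Other axonemal genes and their regulators were counted from 4 lists. Of these 60 genes, 16 had at least 50% of the body in Nanopore LADs and 14 in Illumina LADs, 26.7% and 23.3%, near the background of all protein-coding genes. By bases, 59.1% of their summed bodies lay in Nanopore LADs and 51.8% in Illumina LADs, since long genes make up most of the length. Intermediate and light chain genes had 2 of 11 by each method, Dynlrb2 and Nme8. Docking and assembly factor genes had 5 of 17 by each, Armc4, Cfap300, Dnaaf6, Efcab1 and Lrrc6, all at 100%. Genes of spokes, links and the central apparatus had 8 of 26 by Nanopore and 6 by Illumina, with Cfap47 and Rsph4a at 100% in both lists. Hydin, of the central apparatus, and Cfap54, the exceptions between methods, had 91.2% and 72.9% by Nanopore against 29.1% and 33.9% by Illumina. Among 6 regulators of the ciliary program, Gmnc lay 100% in both lists, Mcidas 5.78% by Nanopore and 0% by Illumina, and Foxj1, Rfx2, Rfx3 and Ccno 0% in both. Of the 60, the 10 genes of 100 kb or more had 8 above 50% by Nanopore and 6 by Illumina, and the 50 shorter genes had 8 by each method. Of all protein-coding genes of 100 kb or more, 41.3% had at least 50% in Nanopore LADs and 36% in Illumina LADs. At 300 kb or more these shares were 64.9% and 59.7%. They were 21.9% and 18.2% at 30 to 100 kb, and 29.3% and 26.2% under 30 kb. Those 10 long genes had 83.2% of their summed bodies in Nanopore LADs and 71.7% in Illumina LADs. The 9 heavy chain genes of that length had 73.05% and 67.2%, and the difference was not tested. A single gene at 100% in both lists spans 898 kb of the 2913 kb in those 10 bodies. The summed shares of the 10 therefore rest heavily on that gene.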

How the data were processed

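Per the labels' protocols, Nanopore libraries started from 2.5 µg of genomic DNA cut with DpnI, and Illumina libraries followed a published DamID protocol. Tools named in the submitters' processing notes are bedtools, deepTools, minimap2 and SAMtools, and builds are mm10 and hg38, with no roles or versions; for the LAD caller and its thresholds nothing is given in the sources used here. The deposited lists hold interval coordinates in bases, with no other quantity, so no count, signal or score was analysed and depth is unknown.

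Genes came from RefSeq on GRCm38.p6, leaving out genes listed below 3 Mb, and all 10 members matched by symbol. The share of each gene body (first to last annotated base) in LADs and the state of each end were computed with Python 3.11.15, numpy 2.4.6 and pandas 2.3.3; start sites came from RefSeq promoter windows of 250 bases before and 50 after the start. Overlap code was checked against base-by-base counts on made-up intervals. No significance test was run. Members and lists were chosen with earlier results of these data known. All members are named; listed genes are named where at least 50% lay in LADs, at most 4 a class in alphabetical order, except that the docking and assembly list, with 5, was named whole after its values were seen. Sequences are those of the genes with the highest and the lowest share and the 2 largest differences between lists, with the tie at 0% broken by list order.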

Additional observations from a re-analysis of the deposited data

How the results depend on the processing

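Alternatives to the 50% criterion, the LADs used and the gene model left most counts near their values. When the whole body had to lie in LADs, 2 genes passed by Nanopore and 1 by Illumina in place of 7 and 6, since 5 of 10 by each method lie in LADs with part of the body only. Counting an end within 20 kb of a LAD as inside gave 3 genes with both ends in Illumina LADs in place of 1, and starting each gene at its listed promoter, an alternative chosen after seeing the data, gave 2. Leaving out LADs under 100 kb, merging LADs up to 40 kb apart, taking midpoints or any overlap, and adding 20 kb on each side moved no count by over 1.5 times. With 20 kb added on each side, 6 genes in place of 7 passed the 50% criterion by Nanopore, equal to the 6 by Illumina. The summed share ranged over 64.99 to 72.55% by Nanopore and 59.5 to 66.6% by Illumina. No paired analysis was possible because each method has 1 consensus list and no values per sample, and leaving out a replicate was not possible for the same reason.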

Other observations

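A word close to the X-box, the site that RFX factors bind in promoters of ciliary genes, was looked for in the 250 bases before each listed start, after the sequences had been seen. The letters searched were GTTNC followed after 3 bases by its reverse complement GNAAC, which together read the same on both strands. It was found before Dnah6 (gttgctaagcaac), Dnah9 (gtttcccagcaac) and Dnah7a, Dnah7b and Dnah7c (gttgcttagcaac in each), in 5 of 16 heavy chain windows and in 2 of the 9 of the members, beside 0.813% of 21044 windows. The Dnah7 genes are close copies and count as related sequences. Since the word was chosen with the sequences known, its counts among the chains cannot be read as an enrichment over all windows. No test was made. The starts of Dnah9 and the Dnah7 genes lay in LADs of both lists and that of Dnah6 in neither. A match of letters is a description and not evidence of binding, and its absence elsewhere says only that these letters were not in the window.

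Dnah12 and Dnah14, on chromosomes 14 and 1, each held a 120 kb Nanopore LAD with both gene ends outside and lay 1687 kb or more and 2657 kb or more from any Illumina LAD.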
